A study of Homo sapiens with 3 samples.

Results

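The constitutive proteasome is the protease that degrades ubiquitin-tagged proteins, and 41 genes for its subunits, caps and assembly factors were followed here out of 18331 genes listed in any of 3 RNA sequencing libraries. Members were all genes named PSMA, PSMB, PSMC, PSMD, PSME, PSMF or PSMG plus a number, without the interferon-inducible genes PSMB8, PSMB9, PSMB10, PSME1 and PSME2 and without pseudogenes or antisense genes. The rule itself reads gene names and no measured value. All 41 were listed in all 3 libraries and all 41 passed the filter on low counts. All libraries were made from 1 established line, the prostate cancer cells PC-3, 7 days after lentivirus had delivered a short hairpin RNA (shRNA). KMT2D, the target, encodes a histone methyltransferase that marks enhancers. Of the libraries, 2 were labelled KMT2D shRNA, with the genotype given as KMT2D deficiency, and 1 was labelled control shRNA, with the genotype given as KMT2D normal. The 2 are titled KMT2D shRNA1 and KMT2D shRNA2, and the labels do not say whether that number marks a hairpin or a replicate. Whether the 2 came from separate cultures is not said either, so p-values measure only the spread between these libraries, which may be technical.

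The proteasome is built from a barrel, the 20S core, and caps that feed it. The core stacks rings of alpha subunits, which gate the channel, on rings of beta subunits, which hold the proteolytic sites. The 19S cap has a base with a ring of ATPases that unfold substrates and a lid that removes ubiquitin. Cells keep subunit levels in proportion, and the transcription factor NFE2L1 raises many subunit genes together when proteasome activity falls short. Interferon induces an alternative set of catalytic subunits that replace PSMB5, PSMB6 and PSMB7 in newly made cores.

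KMT2D RNA was not lower in the labelled libraries as fitted. It stood at 107 CPM (counts scaled to library size with the TMM factors) in library 1, 138 CPM in library 2 and 100.1 CPM in the control. That is a log2 fold change of 0.29 (SE 0.18, adjusted p = 0.227 by edgeR), or -0.61 (adjusted p = 0.00977 by edgeR) once the dependence of fold changes on transcript length, described below, was taken out. With a trend in GC content taken out as well it was -0.45 and did not pass (adjusted p = 0.0795 by edgeR). The sign thus turned once the length trend was taken out, and directions below are those of the libraries labelled KMT2D shRNA. Totals were 5157482, 5123794 and 5559449 counts, and the control had no replicate, so it carries no SD. The chi-square of counts per proteasome gene was 3.84 between both labelled libraries, and 34.2 and 32.3 for each against the control. Over all tested genes these values were larger, at 5.48, 42.6 and 41.8. All 4 epithelial markers were listed, with summed levels of 426, 460 and 733 CPM in library 1, library 2 and the control. KRT8 and KRT18 carried that sum, while CDH1 went the other way, at 17.8 and 18.5 against 12.7 CPM. Of the prostate lineage markers KLK3 was not listed, and TMPRSS2 was at 53.7, 41.0 and 35.8 CPM. Of 4 leukocyte markers 2 were listed, summing to 1.45 to 2.37 CPM. Fibroblast markers (4 of 4 listed) summed to 375 to 398 CPM, nearly all of it COL1A1, with DCN at 0 to 2 counts. Of 3 endothelial markers only PECAM1 was listed, at 18.9 to 20.3 CPM. Among retinal markers, looked at because the word retinal stands in the design text of the series, RCVRN was not listed, and CRX and PDE6B summed to 14.9, 14.8 and 25.8 CPM. The part of these differences in the results below was not tested.

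The comparison asked which proteasome genes had other levels after KMT2D shRNA than after control shRNA. Most core genes, alpha ring genes first, and several assembly chaperones were lower in the labelled libraries, and the alternative cap gene PSME4 was higher. Of the 41 genes 16 fell and 1 rose, where "fell" and "rose" mean an adjusted p under 0.05 in edgeR's quasi-likelihood test over all 14016 genes tested. Of all tested genes 14.5% fell and 16.5% rose. Fewer passed with other tools: DESeq2 called PSMA6 and PSMB7 lower and PSME4 higher, and limma on FPKM called 0 of the 41. By limma 16 to 17 of the 41 had an unadjusted p under 0.05. So had 4277 to 4346 of all 13301 genes with a filter on FPKM, and 4568 of 18331 without it. The median log2 fold change was -0.33 over the 41 genes and -0.01 over all tested genes. Both labelled libraries were below the control for 33 of the 41 genes and above it for 7. For all tested genes these shares were 42.8% and 41.5%, and counts for genes of similar length are given below. In bulk RNA, fewer cells of a type and less RNA per cell cannot be told apart.

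These counts moved with transcript length. Across all 14016 tested genes the log2 fold change followed transcript length, with a Spearman coefficient of 0.47, and across the 41 proteasome genes the coefficient was 0.63. These are descriptions over genes that share the same 3 libraries. Proteasome transcripts are short, with a median of 1582 bases against 2963 bases for all tested genes. Net of the length trend, 2 members fell (PSMA5 and PSMA6) and 2 rose (PSMD6 and PSME4), against 9.71% and 9.65% of all tested genes. The median of the 41 genes was then -0.05. The same 4 genes passed with a trend in GC content removed as well, against 6.98% of all tested genes that fell and 7% that rose.

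**Figure D1:**
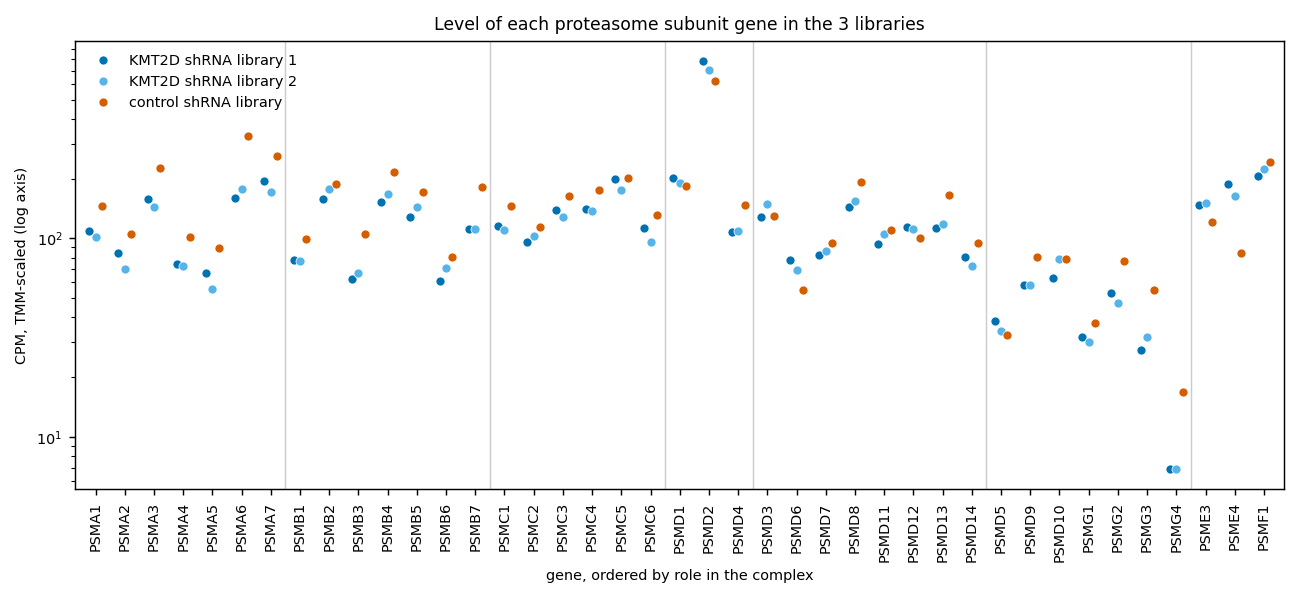
CPM (TMM-scaled, log axis) of each of the 41 proteasome genes in KMT2D shRNA library 1, library 2 and the control library, 1 point per library, ordered by role with vertical lines between role groups. All 14 core genes (PSMA and PSMB) have both labelled libraries below the control, against 42.8% of all tested genes. Of tested genes of up to 1000 bases this held for 643 of 804. For genes of over 1000 and up to 1500 bases it was 893 of 1219, and over 3000 bases 1714 of 6891. PSME4 has both above it, against 41.5% of all tested genes and 4171 of 6891 genes over 3000 bases.

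All 7 genes of the 20S alpha ring fell, with log2 fold changes from -0.97 for PSMA6 to -0.46 for PSMA2 and a median of -0.51. The ring's median was -0.42 in library 1 and -0.61 in library 2. Scaled to library totals in place of TMM, edgeR called PSMA3 and PSMA6 of the 7, and without the filter on low counts it called PSMA6. PSMA6, an outer ring subunit, was at 159 CPM in library 1, 177 CPM in library 2 and 330 CPM in the control. Both labelled libraries lay far below the control, at ratios of 0.483 (95% interval 0.444 to 0.524) and 0.536 (0.495 to 0.581), exact binomial intervals that cover counting error only. The group mean of PSMA6 was 168 ± 12.6 CPM (SD, n = 2), and the log2 fold change was -0.97 (SE 0.16, adjusted p = 8.39e-06 by edgeR), or -0.52 net of the length trend (SE 0.17, adjusted p = 0.0203 by edgeR). PSMA5 was at 67.3 and 55.8 CPM in the labelled libraries and 89.4 CPM in the control. Both labelled libraries were thus below the control, as for 42.8% of all tested genes. Its log2 fold change was -0.54 (SE 0.18, adjusted p = 0.017 by edgeR).

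PSMA5 stood apart from the other alpha genes by its deposited length of 3837 bases, where the others ran from 1014 bases (PSMA3) to 1466 bases (PSMA2). Genes over 3000 bases had a median log2 fold change of 0.27, and 5.53% of them fell. Net of the length trend the fold change of PSMA5 moved away from 0, to -0.67 (SE 0.18, adjusted p = 0.00389 by edgeR). The calls of PSMA1, PSMA2, PSMA3, PSMA4 and PSMA7 were lost in that fit, where their log2 fold changes were -0.07, -0.11, -0.13, -0.06 and -0.07. All 7 alpha genes stayed below 0 there, as did 6983 of all 14016 tested genes. For the alpha genes whose calls were lost, the adjusted p ran from 0.648 to 0.846 by edgeR. Reads of PSMA6 and the readthrough gene PRORP-PSMA6, of PSMA3 and its antisense gene PSMA3-AS1, and of these genes and their pseudogenes may not have been told apart. The most abundant members of the ring by FPKM, the measure scaled by transcript length, were PSMA6 (321 FPKM in the control, 159 and 173 FPKM in the labelled libraries) and PSMA7 (251 FPKM, then 193 and 164 FPKM). PSMA5 was the least abundant, at 22.9 FPKM in the control and 17.7 and 14.3 FPKM in the labelled libraries.

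Promoter sequences of 3 core genes that fell are shown to compare the motifs they hold: those of PSMA5 and PSMA6, whose calls held net of the length trend, and that of PSMB3, whose call did not. Each is the 250 bases before the RefSeq start on GRCh38.p14, 5′ to 3′ on the gene's strand; PSMA5 is at chr1:109426449-109426698, minus strand, PSMA6 (the first of its listed starts) at chr14:35292067-35292316, plus strand and PSMB3 at chr17:38752491-38752740, plus strand. Capitals mark matches on either strand to CCAAT (the box bound by NF-Y), GGGCGG (a GC box) or TGACNNNGC (the core of the antioxidant response element, which NFE2L1 and NFE2L2 bind).
PSMA5: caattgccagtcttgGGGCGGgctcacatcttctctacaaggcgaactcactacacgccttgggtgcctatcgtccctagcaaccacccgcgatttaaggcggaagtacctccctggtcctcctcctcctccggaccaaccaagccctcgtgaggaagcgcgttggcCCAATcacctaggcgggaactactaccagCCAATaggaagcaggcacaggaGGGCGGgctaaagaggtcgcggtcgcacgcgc
PSMA6: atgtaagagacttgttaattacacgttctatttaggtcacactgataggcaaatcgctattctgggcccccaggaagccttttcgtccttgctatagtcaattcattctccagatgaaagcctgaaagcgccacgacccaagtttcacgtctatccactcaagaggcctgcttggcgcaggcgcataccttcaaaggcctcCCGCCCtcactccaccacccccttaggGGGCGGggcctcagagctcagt
PSMB3: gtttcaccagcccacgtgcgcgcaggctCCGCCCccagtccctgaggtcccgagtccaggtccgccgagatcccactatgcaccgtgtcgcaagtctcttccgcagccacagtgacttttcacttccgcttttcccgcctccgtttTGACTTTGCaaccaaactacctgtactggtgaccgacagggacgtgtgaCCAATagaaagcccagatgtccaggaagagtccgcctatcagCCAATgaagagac
PSMA5 held 2 CCAAT and 2 GGGCGG matches, PSMA6 held 2 GGGCGG matches alone, and PSMB3 held 2 CCAAT, 1 TGACNNNGC and 1 GGGCGG match. These matches are descriptions of the letters in 1 window and not binding sites.

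Of the 41 genes, 35 had a promoter in the RefSeq table; PSMA7, PSMB1, PSMB6, PSMB7, PSMD4 and PSMG3 had no entry. CCAAT was in 16 of the 35 windows, against 33.0% of all 27305 promoters in the table. TGACNNNGC was in 8 of 35 (PSMB3, PSMD3, PSMD5, PSMD9, PSMD12, PSME4, PSMG1 and PSMG2), against 11.03% of all promoters. Among those 8 genes PSMB3, PSMD9 and PSMG2 fell and PSME4 rose. GGGCGG was in 23 of 35, against 42.3% of all promoters and 66.4% of those of tested genes. The core of the interferon-stimulated response element (TTTC, any pair of bases, TTTC, either strand) was in 3 of 35, those of PSMA4, PSMB4 and PSMG4, against 3.07% of all promoters.

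Of the 7 genes of the 20S beta ring, 3 fell (PSMB3, PSMB4 and PSMB7) and 0 rose, against 14.5% and 16.5% of all tested genes. Of genes of up to 1000 bases 45.6% fell, and of over 1000 and up to 1500 bases 31.1%. The ring's median log2 fold change was -0.36. PSMB7, which carries the trypsin-like site, was at 112 and 111 CPM in the labelled libraries and 181 CPM in the control. The labelled libraries lay close together and far below the control. The mean was 112 ± 0.745 CPM (SD, n = 2), and the log2 fold change was -0.70 (SE 0.17, adjusted p = 0.00112 by edgeR), or -0.25 net of the length trend (adjusted p = 0.312 by edgeR). PSMB3, a structural subunit of 784 bases, was at 62.5 and 66.6 CPM against 105 CPM in the control. Its log2 fold change was -0.70 (SE 0.17, adjusted p = 0.00136 by edgeR), or -0.20 net of the length trend (adjusted p = 0.444 by edgeR). PSMB4, another structural subunit, had a log2 fold change of -0.44 (SE 0.17, adjusted p = 0.0418 by edgeR), which turned to 0.03 net of the length trend (adjusted p = 0.919 by edgeR).

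The other two catalytic subunits did not pass the test. PSMB5, which carries the chymotrypsin-like site and is the main target of the drug bortezomib, was at 128 and 144 CPM in the labelled libraries and 171 CPM in the control, a log2 fold change of -0.33 (SE 0.17, adjusted p = 0.137 by edgeR). PSMB6, which carries the caspase-like site, was at 60.8 and 70.8 CPM against 80.5 CPM, a log2 fold change of -0.29 (SE 0.18, adjusted p = 0.218 by edgeR). Both genes had the labelled libraries below the control, but their fold changes turned to 0.06 and 0.19 net of the length trend. PSMB1 was at -0.36, or 0.11 net of the length trend. PSMB2, the longest beta gene at 4691 bases, was at -0.16 on the log2 scale, or -0.41 net of the length trend (adjusted p = 0.0805 by edgeR).

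The interferon-inducible counterparts of these catalytic genes, which are not members, had larger log2 fold changes. PSMB8, PSMB9 and PSMB10 had log2 fold changes of -2.24, -4.12 and -2.50, and the cap genes PSME1 and PSME2 had -1.20 and -1.52; all 5 fell net of the length trend too. By FPKM, PSMB8 was 64.5% of PSMB5 in the control and 17.7% and 15.4% in the labelled libraries, PSMB9 was 52.2% of PSMB6 and then 3.62% and 3.67%, and PSMB10 was 18.4% of PSMB7 and then 5.24% and 5.27%. Each share was lower in both labelled libraries than in the control.

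**Figure D2:**
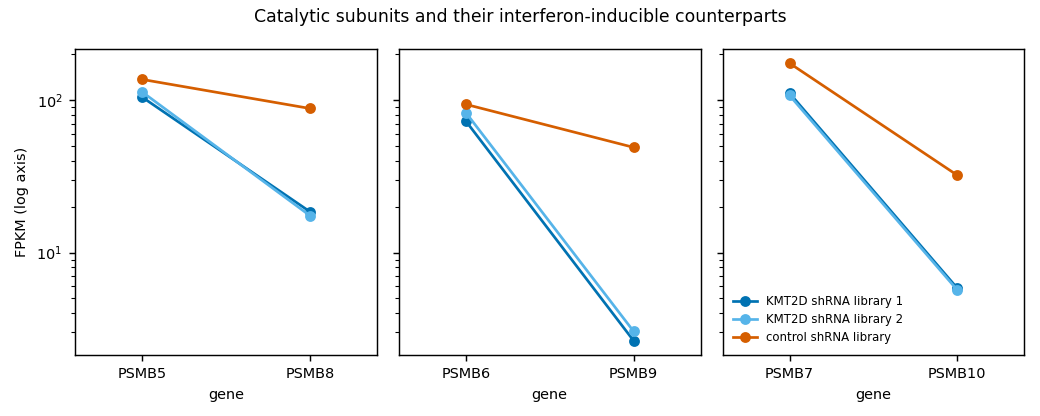
FPKM (log axis) of each constitutive catalytic subunit gene and its interferon-inducible counterpart, 1 line per library joining the pair. PSMB5, PSMB6 and PSMB7 lie between 72.9 and 175 FPKM in all 3 libraries, whereas PSMB9 drops from 49.1 FPKM in the control to 2.64 and 3.04 FPKM.

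None of the 6 genes of the 19S ATPase ring fell or rose by edgeR, and DESeq2 and limma on FPKM also called 0. By edgeR 1 of them had an unadjusted p under 0.05, against 5711 of all 14016 tested genes. Both labelled libraries were below the control for all 6, against 42.8% of all tested genes, and the ring's median log2 fold change was -0.31. PSMC1 had the lowest value, -0.36 (SE 0.17, adjusted p = 0.0997 by edgeR), at 115 and 110 CPM in the labelled libraries and 145 CPM in the control. PSMC5 had the highest, -0.11 (SE 0.17, adjusted p = 0.679 by edgeR). It was at 200 and 176 CPM against 202 CPM, so library 1 lay next to the control. Net of the length trend the ring's median was -0.04 and PSMC5 was at 0.26. Overlapping genes may share reads with PSMC1, PSMC2 and PSMC5, since no strand-marking step appears among the library steps.

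In the rest of the 19S cap 2 of 11 genes fell, PSMD4 of the base and PSMD13 of the lid, against 14.5% of all tested genes. PSMD4, a ubiquitin receptor, was at 107 and 108 CPM in the labelled libraries and 148 CPM in the control, a log2 fold change of -0.45 (SE 0.17, adjusted p = 0.0366 by edgeR). PSMD13, a lid subunit, was at 113 and 118 CPM against 165 CPM, a log2 fold change of -0.51 (SE 0.17, adjusted p = 0.0182 by edgeR). Their calls did not hold net of the length trend, at -0.08 and -0.24.

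PSMD2, a base scaffold subunit, had the most counts of all members in each library, and the highest mean FPKM over the 3 libraries. It was at 782 and 705 CPM in the labelled libraries and 618 CPM in the control, or 264, 233 and 203 FPKM. Both labelled libraries were above the control, but the log2 fold change of 0.27 did not pass (SE 0.16, adjusted p = 0.212 by edgeR). PSMD1, the other large base subunit, was at 0.09 on the log2 scale.

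PSMD6, a lid subunit, lay above the median of genes of its length. It was at 78.2 and 69.6 CPM in the labelled libraries and 54.9 CPM in the control, so both were above it. The log2 fold change of 0.43 missed the threshold (SE 0.18, adjusted p = 0.0697 by edgeR), while tested genes of over 1000 and up to 1500 bases had a median of -0.39. Net of the length trend PSMD6 rose by 0.78 (SE 0.18, adjusted p = 0.00149 by edgeR). Of the 1219 tested genes of that length band 97 rose net of the trend, and 161 had both labelled libraries above the control. An antisense gene listed in the same tables, PSMD6-AS2, overlaps PSMD6, and reads of the pair cannot be told apart without strand. The remaining 6 lid genes ran from -0.37 for PSMD8 to 0.17 for PSMD12, and PSMD14, the deubiquitinase of the lid, was at -0.30 (adjusted p = 0.188 by edgeR).

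The summed level of the core genes was lower relative to the 19S genes in the labelled libraries. The 14 core genes summed to 1410 and 1377 FPKM in the labelled libraries and 2017 FPKM in the control, and the 17 genes of the 19S cap to 1368, 1280 and 1430 FPKM. The ratio of core to 19S was 1.03 in library 1, 1.08 in library 2 and 1.41 in the control. Leaving out PSMD2 it was 1.28, 1.32 and 1.64, and with each gene's length trend divided out it was 1.17, 1.25 and 1.41. The control was highest in each version. Core transcripts had a median length of 1047 bases and 19S transcripts of 1734 bases. Genes of high FPKM weigh most in these sums. The median log2 fold change was -0.468 for core genes and -0.193 for 19S genes as fitted. Net of the length trend these medians were -0.093 and -0.025. With 1 control library, the smallest p an exact one-sided permutation test of this ratio can give is 0.333, and no other test of the ratio was made.

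**Figure D3:**
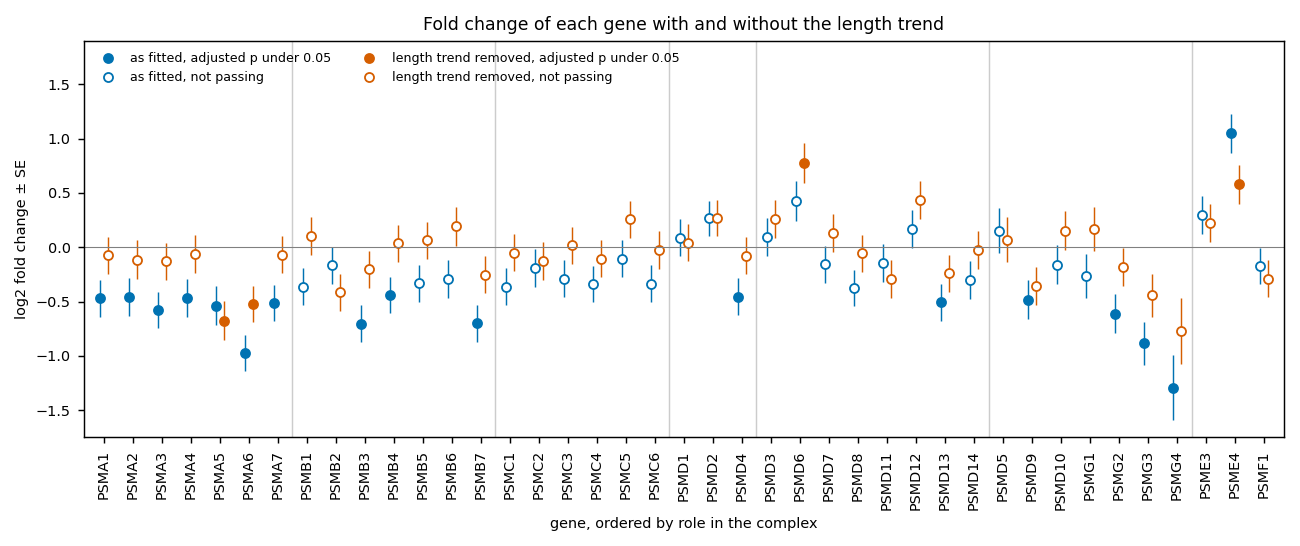
Log2 fold change (KMT2D shRNA over control, error bars SE from edgeR) of each of the 41 genes as fitted (blue) and net of the length trend (orange); filled points have an adjusted p under 0.05. As fitted all 7 PSMA genes are filled and below 0, where 14.5% of all tested genes fell. Net of the length trend only PSMA5, PSMA6, PSMD6 and PSME4 are filled.

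Among 7 assembly chaperone genes 4 fell and 0 rose, against 14.5% and 16.5% of all tested genes. Their median log2 fold change was -0.48. PSMG4, whose product pairs with that of PSMG3 to help build the alpha ring, had the largest fall among the 41 genes. It had 36, 35 and 93 counts in library 1, library 2 and the control, or 6.88, 6.90 and 16.9 CPM. The labelled libraries were nearly alike, at ratios to the control of 0.407 (95% exact binomial interval 0.269 to 0.605) and 0.408 (0.269 to 0.608). The log2 fold change of PSMG4 was -1.29 (SE 0.30, adjusted p = 0.000748 by edgeR), or -0.77 net of the length trend (SE 0.30, adjusted p = 0.0635 by edgeR). Its transcript, at 651 bases, was the shortest of the 41.

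PSMG3 was at 27.3 and 31.9 CPM in the labelled libraries and 54.7 CPM in the control, a log2 fold change of -0.88 (SE 0.20, adjusted p = 0.000449 by edgeR). PSMG2, which pairs with PSMG1 in the other alpha ring chaperone, had a log2 fold change of -0.61 (SE 0.18, adjusted p = 0.00688 by edgeR), while PSMG1 was at -0.26 (adjusted p = 0.346 by edgeR), or 0.17 net of the length trend. PSMD9, a chaperone of the ATPase ring, was at 57.9 and 58.1 CPM against 81.0 CPM, a log2 fold change of -0.48 (SE 0.18, adjusted p = 0.0321 by edgeR). PSMG2, PSMG3 and PSMD9 did not pass net of the length trend, at -0.18, -0.44 and -0.36. PSMD10 and PSMD5, the other ATPase ring chaperones, were at -0.16 and 0.15, or 0.15 and 0.07 net of the length trend.

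Of the genes for other caps and for an inhibitor, PSME4 rose. PSME4 encodes PA200, a single-chain nuclear cap that opens the core without ubiquitin. It was at 187 and 163 CPM in the labelled libraries and 84.6 CPM in the control, so both lay well above it, with ratios of 2.21 (95% exact binomial interval 1.98 to 2.47) and 1.92 (1.72 to 2.16). The mean was 175 ± 17.1 CPM (SD, n = 2), and the log2 fold change was 1.05 (SE 0.18, adjusted p = 1.51e-05 by edgeR). At 7101 bases its transcript is the longest of the 41, and net of the length trend the log2 fold change was 0.58 (SE 0.18, adjusted p = 0.016 by edgeR). PSME3, the nuclear cap subunit PA28 gamma, was at 148 and 150 CPM against 121 CPM, a log2 fold change of 0.30 (SE 0.17, adjusted p = 0.194 by edgeR). PSMF1, the proteasome inhibitor PI31, was at -0.17 (adjusted p = 0.463 by edgeR).

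Set beside genes of similar length, the proteasome genes had medians close to those of all tested genes up to 3000 bases, and lower ones over 3000 bases. Among 5 members of up to 1000 bases 3 fell, against 45.6% of the 804 tested genes in that band, with medians of -0.44 for members and -0.52 for the band. Among 14 members of over 1000 and up to 1500 bases 10 fell, against 31.1% of 1219 genes, with medians of -0.47 and -0.39. Among 10 members of over 1500 and up to 2000 bases 1 fell, against 24.1% of 1727 genes, with medians of -0.32 and -0.26. Of 4 members of over 2000 and up to 3000 bases 1 fell, against 14.5% of 3375 genes, with medians of -0.05 and -0.105. Over 3000 bases 1 of 8 members fell and 1 rose, against 5.53% and 28.3% of 6891 genes, with medians of -0.03 and 0.27. Both labelled libraries were below the control for 5 of 5 members of up to 1000 bases, against 643 of 804 genes. In the next bands this held for 13 of 14 members against 893 of 1219 genes and 9 of 10 against 1058 of 1727. In the longer bands it held for 2 of 4 members against 1688 of 3375 genes and 4 of 8 against 1714 of 6891.

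Depth differed too, and its part in these counts was not tested. Members had a median of 121 CPM in the control, against 28.0 CPM for all tested genes. Among genes with a mean of 50 CPM or more, a cut chosen after the values were seen, 48% of 346 genes of over 1000 and up to 1500 bases fell, against 9 of 12 members. In the band of up to 1000 bases 71.8% of 273 such genes fell, against 2 of 4 members, and of over 1500 and up to 2000 bases 35.5% of 451, against 1 of 10. In the longer bands these shares were 19.7%, against 1 of 4 members, and 5.92%, against 1 of 7.

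**Figure D4:**
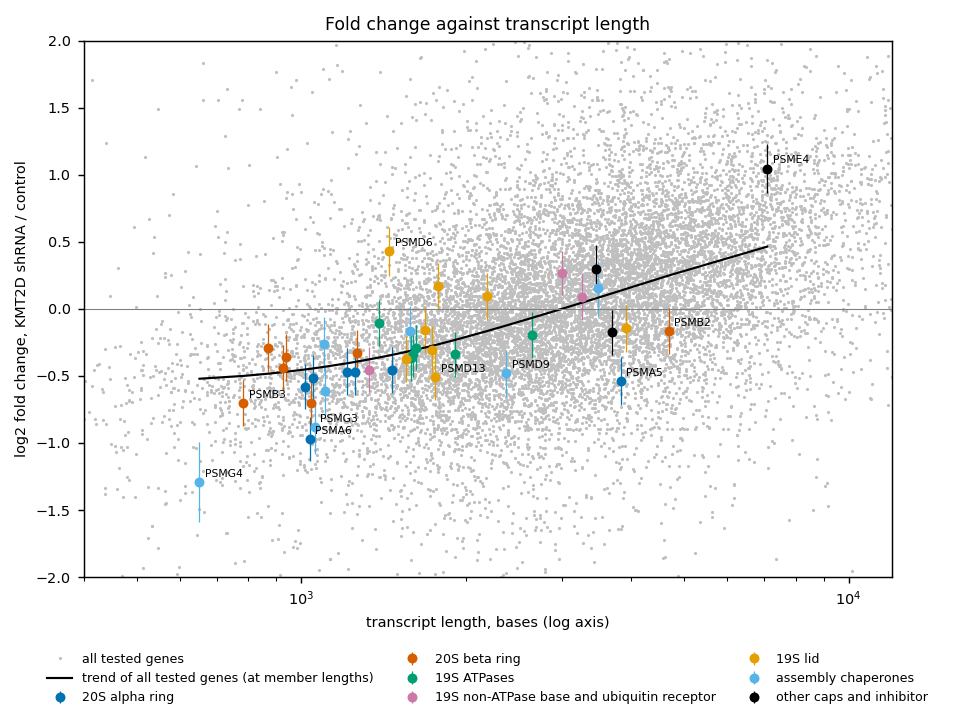
Log2 fold change (KMT2D shRNA over control) against transcript length in bases (log axis) for all tested genes within the drawn range (grey) and the 41 proteasome genes (coloured by role, error bars SE), with the trend over all tested genes drawn at the members' lengths. PSMD6 and PSME4, which passed net of the trend, lie above the line and PSMA5 and PSMA6 below it. PSMG4, which did not pass, lies farthest below it, by 0.77.

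**Figure D5:**
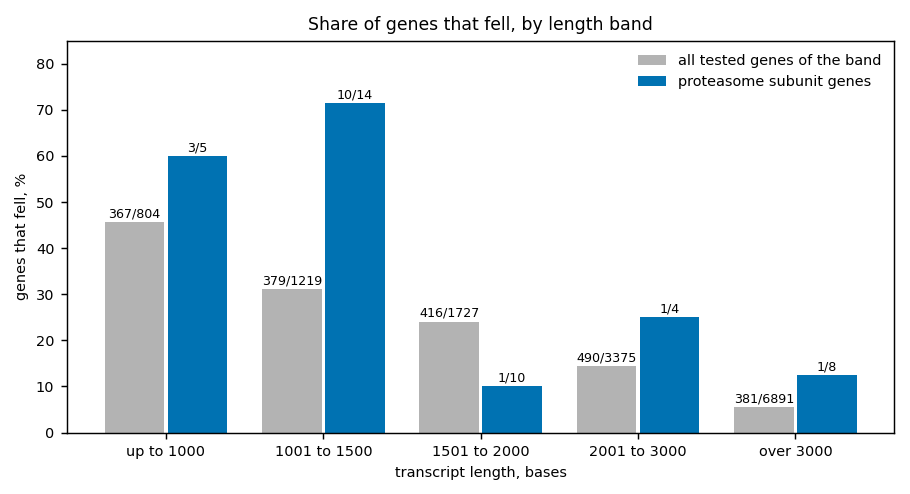
Share of genes that fell (%, edgeR adjusted p under 0.05) in each length band, for all tested genes (grey) and for proteasome genes (blue), with the counts above each bar. The members' share exceeds the band's share most for over 1000 and up to 1500 bases, where 10 of 14 fell.

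Genes that work with the proteasome but lie outside the family moved in both directions. Of 36 such genes, all tested, 14 fell and 5 rose, against 14.5% and 16.5% of all tested genes; net of the length trend 10 fell and 2 rose. The 5 interferon-inducible genes make up part of those that fell.

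Among 10 other subunits, receptors and assembly factors 5 fell and 2 rose, against 14.5% and 16.5% of all tested genes. POMP, the chaperone that completes the core, was at 61.2 and 67.4 CPM in the labelled libraries and 110 CPM in the control, a log2 fold change of -0.77 (SE 0.17, adjusted p = 0.000487 by edgeR), or -0.43 net of the length trend (adjusted p = 0.0704 by edgeR). With the GC trend removed as well POMP was at -0.577 and passed (adjusted p = 0.0398 by edgeR). SEM1, a small lid subunit, was at -0.61, the ubiquitin receptor ADRM1 at -0.48, the ATPase chaperone PAAF1 at -0.58 and AKIRIN2, which carries proteasomes into the nucleus, at -0.71. AKIRIN2 stood at -1.05 in library 1 alone and -0.43 in library 2 alone. These 4 fell as fitted but did not pass net of the length trend, where they were at -0.08, -0.12, -0.28 and -0.49. ECPAS, an adaptor and scaffold of the proteasome with a transcript of 7391 bases, was at -0.13 as fitted and fell by 0.62 net of the length trend (SE 0.17, adjusted p = 0.0069 by edgeR). UBE3C, a ubiquitin ligase on the 19S cap, rose by 0.81 (SE 0.18, adjusted p = 0.000449 by edgeR), or by 0.50 net of the length trend (adjusted p = 0.0371 by edgeR). With the GC trend removed as well UBE3C was at 0.466 and did not pass (adjusted p = 0.0605 by edgeR). USP14, a deubiquitinase of the cap, rose by 0.47 (adjusted p = 0.0355 by edgeR), which did not hold net of the length trend (0.29, adjusted p = 0.252 by edgeR).

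Of 6 genes that control transcription of subunit genes, NFE2L1 fell and DDI2 and SEL1L rose. NFE2L1 was at 496 and 553 CPM in the labelled libraries and 718 CPM in the control. Both lay below the control, with a log2 fold change of -0.45 (SE 0.16, adjusted p = 0.0256 by edgeR), or -0.72 net of the length trend (SE 0.16, adjusted p = 0.00075 by edgeR). DDI2, the protease that activates the NFE2L1 protein, had 30, 19 and 7 counts, a log2 fold change of 1.88 (SE 0.63, adjusted p = 0.0185 by edgeR) that rests on few counts. SEL1L, part of the machinery that moves NFE2L1 out of the endoplasmic reticulum, was at 99.8 and 161 CPM against 82.8 CPM, with library 1 nearer the control (log2 fold change 0.27) than library 2 (0.95). It rose by 0.65 as fitted (adjusted p = 0.0105 by edgeR), and stood at 0.14 net of the length trend (adjusted p = 0.678 by edgeR).

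Ubiquitin itself is encoded by several genes. UBB, a polyubiquitin gene, was at 485 and 484 CPM in the labelled libraries and 566 CPM in the control, a log2 fold change of -0.22 (SE 0.16, adjusted p = 0.302 by edgeR). RPS27A, which fuses ubiquitin to a ribosomal protein, was at -0.33 (SE 0.17, adjusted p = 0.13 by edgeR). Neither passed, and both turned sign net of the length trend, to 0.24 and 0.13. UBA1, the activating enzyme, was at 0.03, or -0.07 net of the length trend.

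Of 10 shuttle and unfoldase genes 1 fell and 1 rose, against 14.5% and 16.5% of all tested genes. ZFAND2A, a proteasome-associated protein induced by stress, was at 13.8 and 16.4 CPM in the labelled libraries and 49.4 CPM in the control, a log2 fold change of -1.71 (SE 0.21, adjusted p = 8.99e-09 by edgeR), or -1.24 net of the length trend (adjusted p = 1.09e-05 by edgeR). The shuttle gene UBQLN2 rose by 0.50 (SE 0.18, adjusted p = 0.0325 by edgeR), which did not hold net of the length trend (0.43, adjusted p = 0.0914 by edgeR). VCP, the unfoldase upstream of the proteasome, was at 0.04, or -0.10 net of the length trend.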

How the data were processed

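Poly(A) RNA from PC-3 cells was sequenced on a BGISEQ-500, per the labels' protocols. Per the submitters' processing notes HISAT, Bowtie2 and hg19 were used; which did what, and the counting tool, is not stated there. The authors deposited 1 table per library with expected counts (unscaled estimated reads per gene, per the file headers), FPKM (scaled by length and library, per the file headers) and transcript length; the mean length over libraries was used. A gene not listed in a library was taken as 0. Symbols came from RefSeq GRCh38.p14 (18214 identifiers matched directly, 6 by transcript, 111 not matched).

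Expected counts were rounded and tested with edgeR 4.0.16 (R 4.3.3): default filter, TMM, quasi-likelihood F test on group, Benjamini-Hochberg adjustment over 14016 genes, threshold 0.05, 1 residual degree of freedom, the control assumed to vary like the labelled libraries. SE values derive from the F statistic. The length trend (natural spline with 5 degrees of freedom, robust regression per labelled library on log2 CPM with a prior count of 2) was removed as an offset; GC content came from GENCODE transcripts (98.8% of tested genes). Other settings were DESeq2 1.42.0, limma 3.58.1 on log2(FPKM + 1) or log2(FPKM + 0.1) with a mean FPKM of 1 or more or no filter, other scaling and filters, and each labelled library left out. The fits were tested on simulated counts in which all genes and libraries shared the same dispersion. That setting cannot show how the fits behave if the unreplicated control varies otherwise. A floor of 3 counts was 0.54 to 0.586 CPM. Of the 41 genes, 12 overlap another coding or long non-coding gene and 20 have a named pseudogene, none of which the tables list, so their reads are uncertain. Named genes were those past the threshold as fitted or with the length trend removed, PSMB5, PSMB6 and PSMB7, the highest and lowest of each role group, and related genes past the threshold; others were named after their values were seen. The members and lists were chosen with earlier results of these data known. Results for some genes of the related and marker lists are not reported here.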

Additional observations from a re-analysis of the deposited data

How the results depend on the processing

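No paired analysis was possible because the control group holds 1 library whose label carries no replicate number. Against 16 members that fell and 1 that rose, 8 fell with library totals for scaling, 5 without a filter on low counts, 2 with DESeq2 (with 9 at an unadjusted p under 0.05) and 0 fell and 0 rose with limma on FPKM in each of 3 settings (16 to 17 at an unadjusted p under 0.05, against 21 with edgeR); 2 fell and 2 rose with the length trend removed, alone or with the GC trend. Of all genes, 5711 of 14016 had an unadjusted p under 0.05 with edgeR and 2526 of 14016 with DESeq2. With limma these were 4346 of 13301 (FPKM + 1), 4277 of 13301 (FPKM + 0.1) and 4568 of 18331 (unfiltered). The median log2 fold change of members, -0.334, was -0.316 with library totals, -0.314, -0.318 and -0.314 with limma on FPKM + 1, FPKM + 0.1 and unfiltered FPKM + 1, -0.054 with the length trend removed and -0.085 with both trends removed. With 1 labelled library left out, which allows no test, it ran from -0.354 to -0.331. Of related genes 14 fell and 5 rose as fitted. With library totals 9 fell and 2 rose, without a filter 9 and 1, with DESeq2 8 and 1, with limma 6, 3 and 0 fell and 0 rose, at a mean of 5 CPM or more 3 rose, with the length trend removed 2 rose and with both removed 0 rose. Of all genes 2033 fell and 2319 rose as fitted. Without a filter 849 fell and 1048 rose, with DESeq2 456 and 743, with limma 202 and 93 (FPKM + 1), 72 and 27 (FPKM + 0.1) and 0 and 0 (unfiltered), with the length trend removed 1352 rose, and with both removed 979 fell and 981 rose. The cause of these differences was not tested.

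With the length trend removed the sign turned for KMT2D (-0.606), PSMB4 (0.034), PSMB5 (0.062), PSMB6 (0.193) and PSMC5 (0.257). With both trends removed it turned for KMT2D (-0.45), ADRM1 (0.049), PSMB4 (0.002), PSMB5 (0.036), PSMB6 (0.209), PSMC5 (0.24) and PSMD5 (-0.022). No other of the 46 genes named by the rule in the processing section changed sign in any of the 12 settings that gave it a value. Of the further genes given values, which did not pass as fitted, PSMB1, PSMD10, PSMG1, UBB, RPS27A and VCP turned sign in both of these fits, UBA1 with the length trend removed, and PSMD1 (-0.05) and PSMD8 (0.012) with both removed.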
